A study of Mus musculus with 5 samples.

Results

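The liver sub-line of NT2.5 cells was compared with the parental cells it was derived from, at the level of messenger RNA and across all named genes of a mouse expression array. NT2.5 cells come from a mammary tumour of a mouse with a neu oncogene transgene. Of the 5 arrays of the study, 3 enter this comparison: the liver sub-line at passage 1, an early passage, the liver sub-line at passage 3, the final passage, and parental NT2.5 cells, labelled wild type. The liver sub-line is labelled as preferring liver as its metastatic site, and the parental cells as reaching bone, liver and lung. The other 2 arrays held passages 3 and 6 of the bone sub-line, and their values are set beside those of the liver sub-line. All 5 arrays held total RNA of cells from the same parental line, the labels name no treatment, and 1 array was made per passage. Each sub-line is 1 lineage, so its passages are successive stages and not separate isolates, and a p-value measures only the spread between these arrays, which may be technical.

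Tumour cells that reach the liver leave the sinusoids, meet hepatocytes and the resident macrophages called Kupffer cells, and grow in a tissue rich in innate immune signals. Type I interferons act through a cell surface receptor and switch on antiviral genes, many of which carry a short response element in their promoters. The immunoproteasome, an interferon-inducible form of the proteasome, cuts proteins into peptides for display on MHC class I molecules.

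A level below is the scaled fluorescence intensity of the probe set that stands for a gene, and a log2 difference is that of log2(intensity + 16) from the parental array. The added 16 shrinks the differences of dim genes, so their fold changes are understated. Over all probe sets the median intensity was 24.6 and 26.2 at liver passages 1 and 3, 26.4 and 21.9 at bone passages 3 and 6, and 26.1 in parental cells, and the median shift of the tested genes from the parental array was between -0.04 and 0.01. Most markers of the labelled epithelial cell were bright. Epcam read 3980 and 3761 at liver passages 1 and 3, against 4015 in parental cells, and Cdh1, which encodes E-cadherin, read 3724 and 3637, against 3365. The keratin genes Krt8 and Krt18 read between 3406 and 7880 on all 5 arrays, whereas the Krt19 probe set did not exceed 3.3. The mouse Erbb2 gene read 212 and 280 at liver passages 1 and 3, against 312 in parental cells, and whether its probe set reports the rat transgene was not tested. Of the hepatocyte genes, Alb, Apoa1, Ttr, Fgb and Ahsg were dim. They reached at most 17 at the liver passages and 16.4 in parental cells, under the median of all values on all 5 arrays, 25.1. Other hepatocyte markers passed that median on some or all arrays. Apoh read 39.0 and 43.1 at liver passages 1 and 3, against 36.5 in parental cells. Cyp2e1 read 13.9 and 32.6, against 21.1, Apoa2 read 30.2 in parental cells, and Arg1 is described below.

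Among 12609 genes tested, 243 (1.93%) were at least 2-fold higher and 328 (2.6%) at least 2-fold lower at liver passage 1 than in parental cells. At passage 3 the counts were 276 (2.19%) higher and 215 (1.71%) lower. Both passages are set against the same parental array, so an error of that array appears in both. Of the 571 genes apart at passage 1 and the 491 apart at passage 3, 227 were apart in the same direction in both, which is 39.8% of the passage 1 genes and 46.2% of the passage 3 genes. They comprised 108 higher genes (0.857%) and 119 lower genes (0.944%). A further 197 genes were apart at passage 1 and within 0.5 log2 of parental cells at passage 3, of which 70 were higher (0.555%) and 127 lower (1.01%). The reverse pattern, passage 3 only, held 90 genes, 59 higher (0.468%) and 31 lower (0.246%). Between these classes lay 146 genes of passage 1 and 173 of passage 3, whose other passage was neither close to parental cells nor 2-fold apart. Lce1h, a cornified envelope gene chosen after its values were seen, was the 1 gene 2-fold apart in opposite directions (0.00793%).

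**Figure D1:**
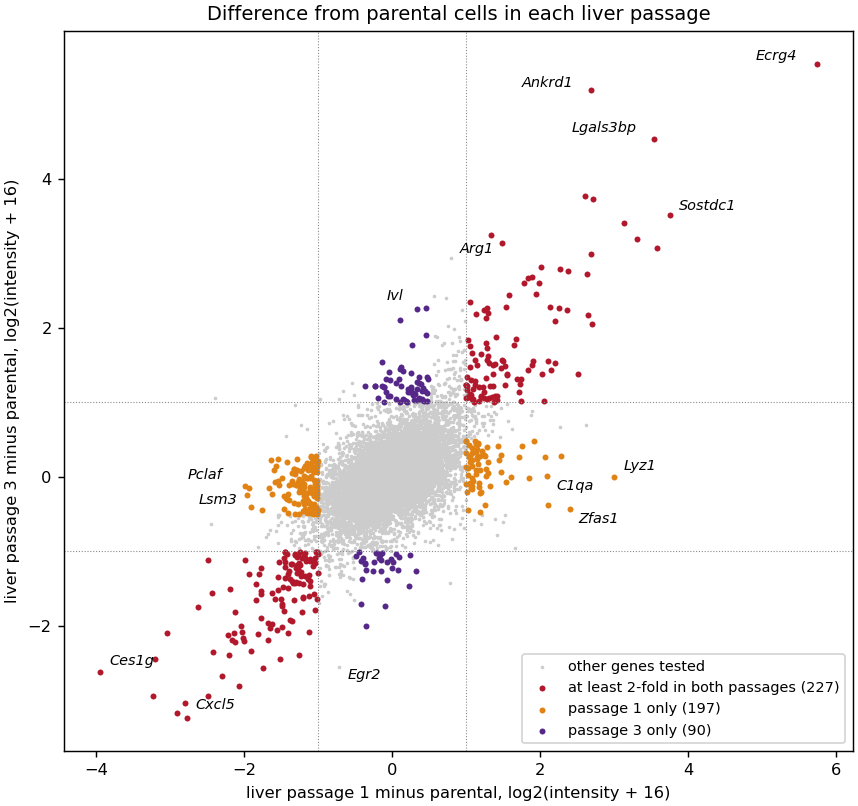
Each point is 1 of the 12609 genes tested, placed by its log2(intensity + 16) difference from parental cells at liver passage 1 (x axis) and passage 3 (y axis). Red marks the 227 genes at least 2-fold apart in both passages, orange the 197 of passage 1 only and purple the 90 of passage 3 only, and dotted lines stand at 2-fold. Ecrg4 lies farthest to the upper right, and Lyz1, Zfas1 and C1qa lie on the orange arm to the right.

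Limma called 2 genes for the liver sub-line against parental cells (0.0159% of genes tested), both higher, and both encode secreted proteins. Ecrg4 encodes the precursor of a secreted peptide. It read 5663 and 4948 at liver passages 1 and 3, against 90.3 in parental cells, and rose 49.9-fold (log2 difference 5.64 ± 0.23, SE, n = 2 liver passages and 1 parental array; limma adjusted p = 0.0023). Sostdc1 encodes a secreted protein that blocks BMP ligands and Wnt receptors. It read 1133 and 956 at liver passages 1 and 3, against 69.3 in parental cells, and rose 12.4-fold (3.63 ± 0.26; limma adjusted p = 0.0361). On both genes the 2 liver passages lay close together and far from the parental array. The other probe sets pointed the same way, between 4.67 and 5.84 on the log2 scale for the other 2 of Ecrg4 and at 3.62 and 3.47 for the other 1 of Sostdc1. Both genes stood high in the bone sub-line too, with Ecrg4 at 6117 and 5801 and Sostdc1 at 2456 and 1962 at bone passages 3 and 6, and liver against bone was not called for either (limma adjusted p = 0.711 and 0.13). Without liver passage 1 or without passage 3, limma called 0 genes (898 and 1231 at an unadjusted p under 0.05), with Ecrg4 at adjusted p = 0.0687 and 0.0585 and Sostdc1 at 0.207 and 0.229. With all arrays, an unadjusted p under 0.05 was found for 945 genes (7.49%), against 630 if p-values were evenly spread. The genes that follow were not called unless so stated, and are given as values.

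Among the 15 genes with the largest difference in both liver passages on the higher side, Lgals3bp, a secreted glycoprotein that binds galectins, read 561 and 1135 at liver passages 1 and 3, against 33.5 in parental cells (limma adjusted p = 0.123). The matricellular glycoprotein gene Sparcl1 read 99.3 and 67.4, against 2.4. Sema3b and Sema7a encode semaphorins, guidance ligands that are secreted in the case of Sema3b and anchored to the membrane in the case of Sema7a. Sema3b read 75.7 and 68.3 at liver passages 1 and 3, against 1.8 in parental cells, and Sema7a read 455 and 601, against 74.4. The other probe sets of both genes gave smaller differences, from 0.10 to 1.5 at passage 1 and from 0.58 to 1.34 at passage 3 for Sema3b, and of 1.35 and 1.39 for Sema7a. Of the 26 tested genes of the collagen and matrix list, 1 was at least 2-fold higher in both passages (0.857% of all genes tested), and the list medians were -0.17 and -0.12. Lgals3bp, Sparcl1, Sema3b and Sema7a all stood above parental cells in the bone sub-line as well, and Sparcl1 and Sema3b were higher there than at the liver passages, with Sema3b at 427 and 232 at bone passages 3 and 6.

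Arhgdib, a gene used mainly in blood cells, read 1832 and 1693 at liver passages 1 and 3, against 171 in parental cells (log2 difference 3.25 ± 0.36; limma adjusted p = 0.106). Cytip, whose product binds cytohesin and regulates adhesion in leukocytes, read 443 and 918, against 54.1. Of its other 2 probe sets, the smallest difference at passage 1 was 0.63, so its probe sets disagreed in size. Cldn2, a claudin that forms cation pores in tight junctions, read 103 and 130 at liver passages 1 and 3, against 2.4 in parental cells, and its other probe set gave log2 differences of 0.78 and 1.27, against 2.69 and 2.99 for the first. Prom1, which encodes the pentaspan membrane protein CD133, read 453 and 485, against 59.6. Veph1, a gene for a membrane-binding protein with a pleckstrin homology domain, read 106 and 108, against 9.7. The liver passages differed little from each other on Prom1 and Veph1 and lay far above parental cells.

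Ankrd1 stood out for its difference between the passages. It encodes an ankyrin-repeat protein of heart and muscle and is a known transcriptional target of the co-activator YAP. It read 602 at liver passage 1 and 3496 at passage 3, against 80.2 in parental cells, or 6.42-fold and 36.5-fold higher. Its other probe set gave log2 differences of 2.54 and 5.01, close to the 2.68 and 5.19 of the first. Its limma adjusted p was 0.401, from a spread taken over the passages of both sub-lines. Ankrd1 differed between the bone passages too, with log2 differences of 0.17 and 1.34 at bone passages 3 and 6. Metabolic and channel genes completed the list, with the aspartoacylase gene Aspa at 1191 and 836 at liver passages 1 and 3, against 85.1 in parental cells (limma adjusted p = 0.0814), and Clca3a2, a regulator of calcium-activated chloride channels, at 217 and 267, against 10.5. The other probe set of Clca3a2 gave log2 differences of 1.42 and 2.01, against 3.13 and 3.42 for the first. Aspa was equally high in the bone sub-line, at 1063 and 834 at bone passages 3 and 6.

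The genes lower in both liver passages included a neutrophil chemokine and several genes of transport and matrix. Cxcl5, which attracts neutrophils through the receptor CXCR2, read 164 and 136 at liver passages 1 and 3, against 1233 in parental cells, 7.56-fold lower (log2 difference -2.92 ± 0.24; limma adjusted p = 0.0558). Its adjusted p lay between 0.012 and 0.234 over the alternative settings, and it was under the threshold in 11 of the 16, of which 3 are the same fit. Csf3, the gene of granulocyte colony-stimulating factor, read 497 and 428 at liver passages 1 and 3, against 2027 in parental cells (limma adjusted p = 0.174). Both genes act on neutrophils, and both were also low in the bone sub-line, Cxcl5 at 127 and 112 and Csf3 at 446 and 652 at bone passages 3 and 6.

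Fndc1, a gene for a protein with fibronectin type III domains, read 30.9 and 41.1 at liver passages 1 and 3, against 424 in parental cells (limma adjusted p = 0.106). Slc39a4, which encodes a zinc importer, read 104 and 188, against 1092. Lcp1, the gene of the actin-bundling protein L-plastin, read 238 and 244, against 1101. Each of these 3 genes had its parental level far above both liver passages. Several genes read near the bottom of the scale at the liver passages. Fxyd6, a regulator of the sodium pump, read 12.6 and 4.7 at liver passages 1 and 3, against 179 in parental cells, and the carboxylesterase gene Ces1g read 2.8 and 31.0, against 273. Dock11, an activator of the GTPase CDC42, read 13 and 8.3, against 202, and Dnm1, a dynamin of vesicle fission, read 13.9 and 5.8, against 152. These 4 genes were between 5.62-fold and 15.4-fold lower on the log2(intensity + 16) scale. The other probe set of Dnm1 gave log2 differences of only -0.63 and -0.39, against -2.49 and -2.95 for the first, and that of Fndc1 gave -1.5 and -1.32, against -3.23 and -2.95.

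The remaining leading genes of this kind were Prelp, a small leucine-rich proteoglycan of matrix, Gad1, which makes the transmitter GABA, the serine protease gene Klk10, the transcription factor gene Nfe2l3, Stxbp6, whose product binds the membrane fusion machinery, the carbonyl reductase gene Cbr2 and the lung surfactant collectin gene Sftpd. At liver passages 1 and 3 they were between 4.28-fold and 8.23-fold lower than in parental cells. The other probe sets of Gad1 (-0.71 and -0.71), Nfe2l3 (-0.98 and -0.94) and Prelp (-1.56 and -1.77) gave smaller log2 differences. Sftpd read 23.7 and 60.3, against 311 in parental cells, and differed most between the passages among these 7. Klk10 was the 1 of them that read near the parental level at both bone passages, with 78.9 and 67.5 at liver passages 1 and 3, 453 and 326 at bone passages 3 and 6, and 422 in parental cells.

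**Figure D2:**
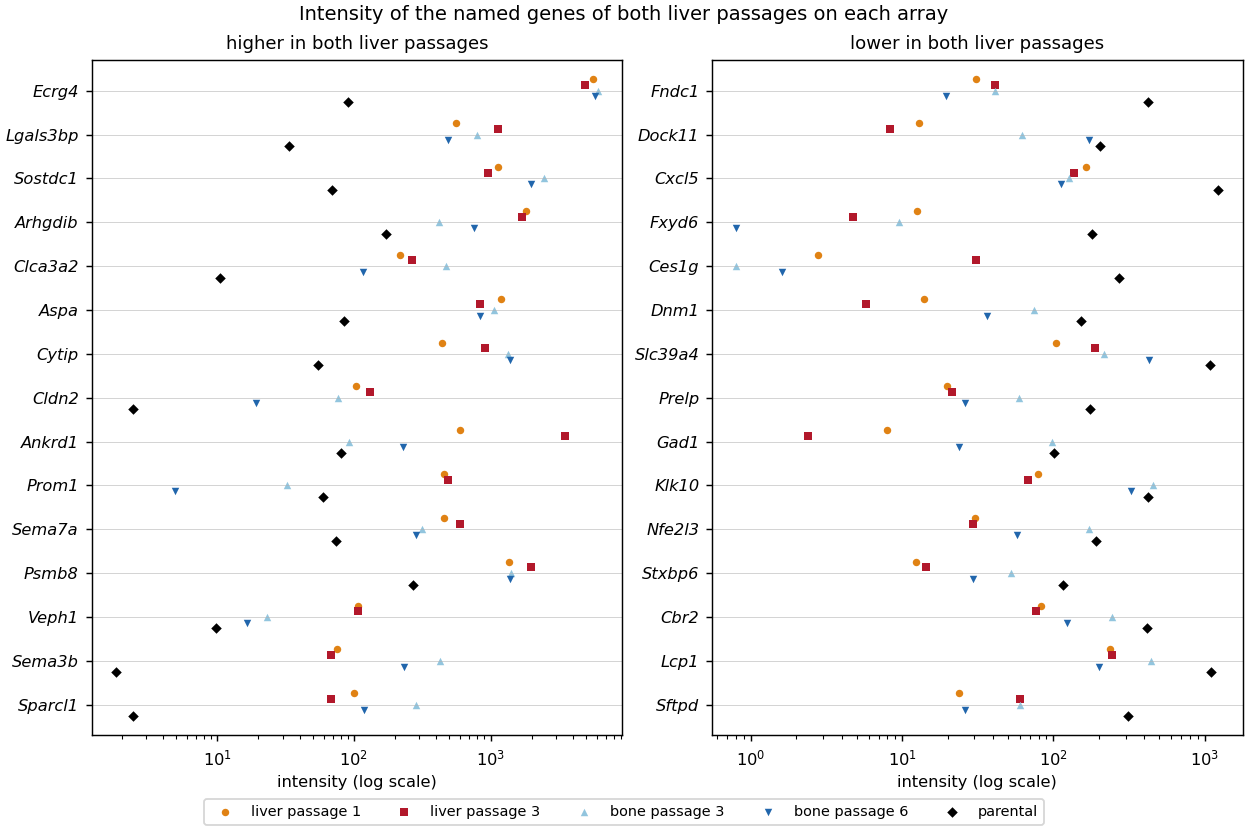
Intensity on a log axis of the 15 genes with the largest difference in both liver passages in each direction, higher on the left and lower on the right, with 1 symbol per array. Liver passages are orange circles and red squares, bone passages light and dark blue triangles, and parental cells black diamonds; Prom1 and Veph1 (left) and Klk10 (right) are the 3 at which the liver and bone sub-lines differed by limma.

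Interferon response genes were higher in both liver passages, and more so at passage 3. Of 30 such genes on the array, 27 stood above parental cells at passage 1 and 30 at passage 3, against 49.1% and 50.4% of all 18193 named genes. At least 2-fold higher were 7 (23.3%) at passage 1 and 15 (50%) at passage 3, where the shares over all named genes were 1.37% and 1.53%. The median log2 difference of the 28 members that were bright enough to test was 0.70 at passage 1 and 1.12 at passage 3, against 0.01 and 0.01 over all genes tested. Limma called 0 of the 28 (7 at an unadjusted p under 0.05, which 7.49% of all genes tested had), with adjusted p from 0.407 upwards. The lowest of these was that of Ifit3. The list was chosen with earlier results of these data known.

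The members with the largest differences are effectors against viral RNA. Oas3 makes the 2-5A second messenger that activates the ribonuclease RNase L, and Oasl2 is a relative of it. Oas3 read 82.7 and 294 at liver passages 1 and 3, against 19.3 in parental cells, and Oasl2 read 287 and 587, against 112. Ifit3 and Ifit1 encode proteins that bind viral RNA or its partners. Ifit3 read 72.6 and 140 at liver passages 1 and 3, against 9.7 in parental cells, and Ifit1 read 162 and 335, against 57.1. Zbp1, a sensor of Z-form nucleic acid that can trigger cell death, read 172 and 309, against 34.5. In each of these 5 genes passage 3 was above passage 1, and passage 1 above parental cells. The 2 further members at least 2-fold higher in both passages, chosen after their values were seen, were Rsad2, the gene of the antiviral enzyme viperin, and Usp18, a negative regulator of the interferon receptor. Rsad2 read 94.2 and 142 at liver passages 1 and 3, against 29.7 in parental cells, and Usp18 read 290 and 405, against 125. Ifit2, chosen in the same way, read 134 and 359 at liver passages 1 and 3, against 323 in parental cells, and was the 1 member at least 2-fold lower at passage 1.

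The bone sub-line did not hold 1 level for these genes. Ifit1 read 207 and 17.6 at bone passages 3 and 6, Oasl2 read 303 and 50.9, and Zbp1 read 180 and 52.3. Bone passage 3 thus lay near liver passage 1, and bone passage 6 lay below parental cells for Ifit1 and Oasl2. The list median was 0.79 at bone passage 3 and -0.53 at bone passage 6. For the 5 leading genes the liver against bone difference was not called (limma adjusted p from 0.223 to 0.463).

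**Figure D3:**
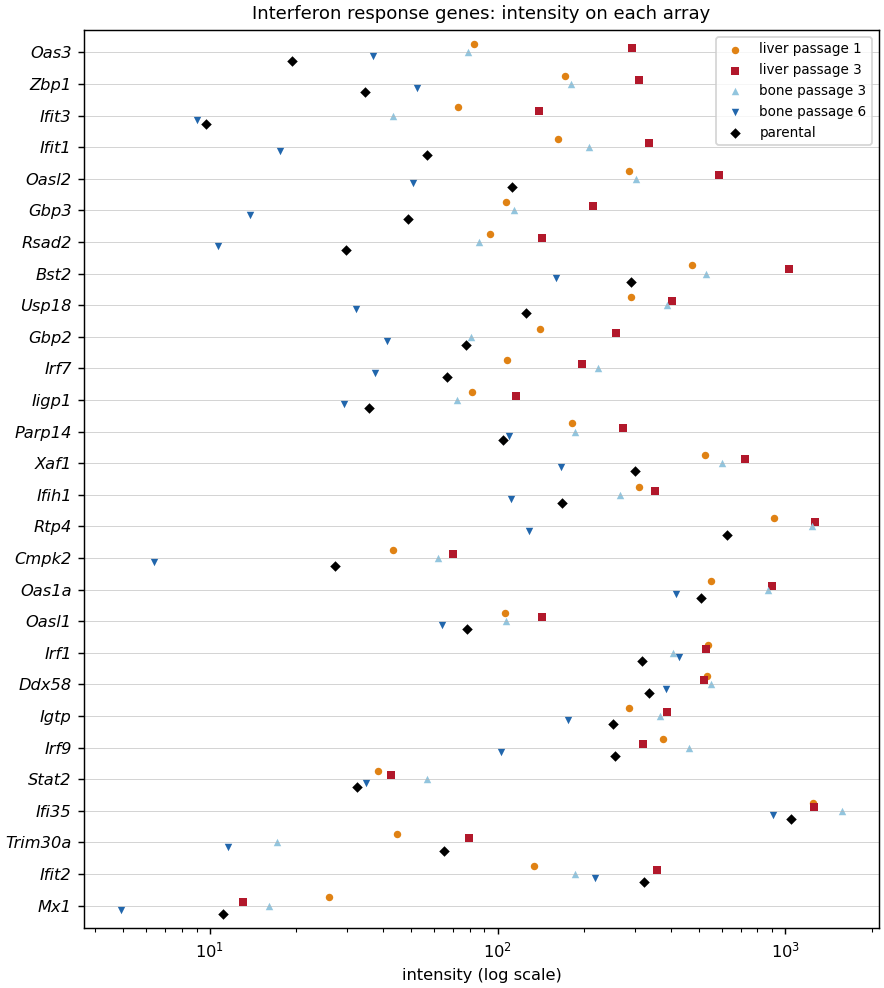
Intensity on a log axis of the 28 interferon response genes tested, with 1 symbol per array and genes ordered by their difference at the liver passages. Red squares (liver passage 3) lie to the right of black diamonds (parental cells) in every row, whereas dark blue triangles (bone passage 6) lie to the left of them in most rows.

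The promoters of 4 of these genes are shown, 3 that hold the core of the element through which interferon acts and 1 that does not. They are the RefSeq sequences of assembly GRCm38.p6 from 250 bases before to 50 bases after the start of the gene, given 5′ to 3′ on the strand of the gene. Capitals mark each match to the core of the interferon-stimulated response element, which is GAAA, any 2 bases and GAAA, or TTTC, any 2 bases and TTTC on the other strand, and no 2 matches overlap. The first is Ifit3 (chr19:34583279-34583578, plus strand), the second Ifit1 (chr19:34640639-34640938, plus strand), the third Oas3 (chr5:120777610-120777909, minus strand) and the last Oasl2 (chr5:114896684-114896983, plus strand), which has no match.
Ifit3: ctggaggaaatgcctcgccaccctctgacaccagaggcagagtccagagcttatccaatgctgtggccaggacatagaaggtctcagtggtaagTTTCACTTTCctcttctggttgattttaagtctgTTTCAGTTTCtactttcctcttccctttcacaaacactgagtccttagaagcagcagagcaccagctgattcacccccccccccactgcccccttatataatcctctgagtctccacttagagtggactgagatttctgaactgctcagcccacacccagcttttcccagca
Ifit1: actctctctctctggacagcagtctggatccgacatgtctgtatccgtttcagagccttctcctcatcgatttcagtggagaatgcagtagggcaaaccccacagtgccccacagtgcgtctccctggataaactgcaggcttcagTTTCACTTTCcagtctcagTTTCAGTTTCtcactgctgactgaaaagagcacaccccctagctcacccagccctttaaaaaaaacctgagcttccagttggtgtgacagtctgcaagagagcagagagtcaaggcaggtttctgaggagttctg
Oas3: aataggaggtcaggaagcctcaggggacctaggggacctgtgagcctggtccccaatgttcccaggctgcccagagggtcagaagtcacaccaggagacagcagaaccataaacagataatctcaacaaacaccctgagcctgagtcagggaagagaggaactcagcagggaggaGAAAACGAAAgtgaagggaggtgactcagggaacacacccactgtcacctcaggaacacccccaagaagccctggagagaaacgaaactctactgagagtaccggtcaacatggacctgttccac
Oasl2: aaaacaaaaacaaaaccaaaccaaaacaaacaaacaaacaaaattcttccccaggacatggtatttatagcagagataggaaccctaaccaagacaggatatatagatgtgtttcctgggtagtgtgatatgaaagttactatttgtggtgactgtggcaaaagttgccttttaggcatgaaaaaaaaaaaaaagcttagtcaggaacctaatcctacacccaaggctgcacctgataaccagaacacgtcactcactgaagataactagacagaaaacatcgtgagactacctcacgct
In Ifit3 the matches began 156 and 122 bases before the start, in Ifit1 104 and 85 bases, and in Oas3 75 bases before it. The motif was found in 1131 of 32851 promoters of this length (3.44%) and in 369 of the 10180 tested genes that had a promoter (3.62%). Among the 22 tested interferon response genes with a promoter it was found in 13 (59.1%), which is a property of the list, since such genes are known for this element. It was found in 4 of the 5 that were at least 2-fold higher in both liver passages and in 9 of the other 17. A match is a string of letters and not a measured binding site, and its absence from the window of Oasl2 says only that these letters are not there.

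Antigen presentation through MHC class I followed the same order of passages. Of 11 genes on the array, 9 stood above parental cells at passage 1 and 11 at passage 3, against 49.1% and 50.4% of all named genes, with medians of 0.49 and 0.75, and limma called 0 (4 at an unadjusted p under 0.05, which 7.49% of all genes tested had). The immunoproteasome subunit genes led them. Psmb8 read 1372 and 1973 at liver passages 1 and 3, against 271 in parental cells (log2 difference 2.53 ± 0.28; limma adjusted p = 0.106), Psmb9 read 269 and 501, against 79.0, and Psmb10 read 474 and 697, against 258. Tapbp, which encodes the chaperone tapasin that loads peptides, read 1444 and 1673, against 707. The class I heavy chain genes H2-K1 and H2-D1, chosen after their values were seen, read near the parental level. H2-K1 read 3743 and 4595 at liver passages 1 and 3, against 3855 in parental cells, and H2-D1 read 4319 and 4770, against 4610. Another class I gene chosen in this way, H2-Q2, was higher, with log2 differences of 1.2 and 1.65 at liver passages 1 and 3. Its differences at bone passages 3 and 6 were 0.3 and 0.15. Near-identical class I genes can share probes, so their levels are uncertain. In the bone sub-line Psmb8 read 1406 and 1377 and Psmb9 327 and 257 at bone passages 3 and 6, so their height, unlike that of Ifit1, was also seen at bone passage 6.

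Chemokine genes lay on both sides of parental cells. Cxcl10, induced by interferon and a ligand of CXCR3, read 86.5 and 57.6 at liver passages 1 and 3, against 14.9 in parental cells, and Cxcl2, a neutrophil chemokine, read 119 and 49.3, against 16.3. Cxcl12, the ligand of CXCR4, read 11.4 and 13.4, against 56.7, and Cxcl14 read 37.5 and 27.8, against 4.9. Of 21 chemokine and receptor genes on the array, 10 (47.6%) stood above parental cells at passage 1 and 11 (52.4%) at passage 3, near the 49.1% and 50.4% of all named genes. At least 2-fold higher were 19% of them in each passage, against 1.37% and 1.53% of all named genes. At least 2-fold lower were 9.52% at passage 1 and 19% at passage 3, against 1.85% and 1.24%. Of the 20 genes of the inflammatory list, 13 (65%) were below parental cells at passage 1 and 15 (75%) at passage 3, against 50.3% and 48.9% of all named genes. At least 2-fold lower were 20% of them at passage 1 and 15% at passage 3. At least 2-fold higher were 2 (10%) at passage 1 and 0 at passage 3. These 2 were Relb and Birc3. Relb read 246 and 83.0 at liver passages 1 and 3, against 78.5 in parental cells, and Birc3, chosen after its values were seen, read 98.2 and 54.6, against 36.0. The inflammatory list medians were -0.37 and -0.45 at liver passages 1 and 3, and -0.44 and -0.37 at bone passages 3 and 6. Il1rn, the interleukin 1 receptor antagonist, read 118 and 45.1 at liver passages 1 and 3, against 303 in parental cells. Tnfaip2, a tumour necrosis factor induced gene, read 1419 and 857, against 2815. Both were low in the bone sub-line too, Il1rn at 131 and 85.2 and Tnfaip2 at 458 and 686 at bone passages 3 and 6. Of each list 17 genes were tested, and limma called 0 of either. Its unadjusted p was under 0.05 for 9 chemokine and receptor genes and 4 inflammatory genes, and for 7.49% of all genes tested.

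Hypoxia and glycolysis genes were lower in both passages by a small step. Of 20 members, 19 (95.0%) stood below parental cells at passage 1 and 15 (75.0%) at passage 3, against 50.3% and 48.9% of all named genes. The list medians were -0.53 and -0.27 at the liver passages, and -0.36 and -0.47 at bone passages 3 and 6. Car9, a carbonic anhydrase that is a standard marker of hypoxia, read 68.3 and 79.5 at liver passages 1 and 3, against 284 in parental cells (limma adjusted p = 0.174). Egln3, an oxygen-sensing prolyl hydroxylase, read 152 and 190, against 440, while the bone sub-line read 816 and 516 at bone passages 3 and 6. P4ha1 and P4ha2 encode collagen prolyl hydroxylases. P4ha1 read 338 and 458 at liver passages 1 and 3, against 727 in parental cells, and P4ha2 read 1.1 and 3.6, against 33.7. Unlike Egln3, the other named genes were below parental cells in the bone sub-line too. At bone passages 3 and 6 Car9 read 131 and 109, P4ha1 307 and 301, and P4ha2 6.7 and 7.3. Limma called 0 of the 20 (6 at an unadjusted p under 0.05, which 7.49% of all genes tested had).

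The genes of passage 1 only were led on the higher side by genes of macrophages. The complement C1q chains, which macrophages make, read at most 14 on every array but liver passage 1. C1qa read 56.1 and 1.1 at liver passages 1 and 3, against 0.9 in parental cells, C1qc read 44.9 and 0.8, against 0.9, and C1qb read 80.4 and 11.8, against 7.0. The lysosomal protease gene Ctss, which prepares peptides for MHC class II, read 116 and 16.8, against 11.1, and Ctsc, an activator of leukocyte proteases, read 96.1 and 4.1, against 10. Lysozyme followed the same course, with Lyz2 at 140 and 42.2 and Lyz1 at 117 and 0.6 at liver passages 1 and 3, against 25.5 and 0.6 in parental cells. Lyz1 and Lyz2 are near-identical in sequence, so the level of each is uncertain, and with no filter on dim probe sets another probe set stood for Lyz1 and gave a passage 1 difference of -0.04. Zfas1, a non-coding RNA that hosts small nucleolar RNAs, read 3524 at liver passage 1 and 482 at passage 3, against 655 in parental cells.

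Over all 20 macrophage and Kupffer cell markers on the array, 8 were at least 2-fold higher at passage 1 (40.0%, against 1.37% of all named genes) and 2 at passage 3 (10%, against 1.53%). Their summed intensity was 1146 and 820 at liver passages 1 and 3, 543 and 453 at bone passages 3 and 6, and 454 in parental cells. The part of macrophage RNA in the other differences of the liver passages, those of interferon response genes included, was not tested. The 2 members of passage 3 were Csf1r and Cd68. Csf1r, the receptor of macrophage colony-stimulating factor, read 169 and 220 at liver passages 1 and 3, against 67.6 in parental cells, and Cd68, a lysosomal glycoprotein, read 173 and 172, against 52.1. Fcgr3, chosen after its values were seen, fell just short of 2-fold at passage 3, with log2 differences of 1.33 and 0.96. It was dim, at 30.4 and 19.7 at liver passages 1 and 3, 1.3 and 1.1 at bone passages 3 and 6, and 2.4 in parental cells. The other 2 probe sets of Csf1r gave smaller differences, from -0.04 to 0.72 at passage 1 and from 0.16 to 0.87 at passage 3. The pan-macrophage gene Adgre1, which encodes F4/80, read 49.9 and 27.6, against 31.8, and the leukocyte gene Ptprc read 25.7 and 6.1, against 8.6. The 5 markers that set Kupffer cells apart, Cd5l, Clec4f, Vsig4, Marco and Timd4, did not exceed 17.4 at the liver passages or 23.1 on any array. In such bulk RNA, fewer cells of a type and less RNA per cell cannot be told apart. Of other host cells, the markers of T cells, B cells and endothelium gave no member at least 2-fold higher in either liver passage. The shares over all named genes were 1.37% and 1.53%. Only 3 of the 9 endothelial markers were bright enough to test, and Cd3e, Cd3g and Cd79a were not. The absence of a 2-fold difference thus says little about these cells.

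**Figure D4:**
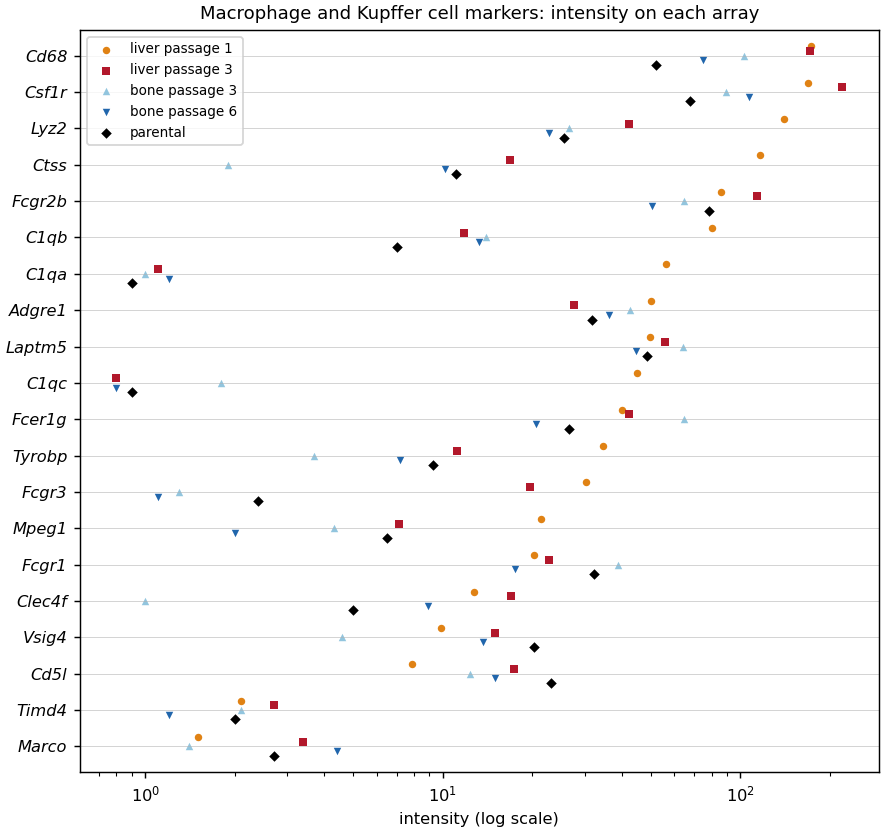
Intensity on a log axis of the 20 macrophage and Kupffer cell markers on the array, with 1 symbol per array. Orange circles (liver passage 1) stand apart from every other array for C1qa, C1qb, C1qc, Ctss and Lyz2. Cd68, Csf1r and the dimmer Fcgr3 read higher in both liver passages than on the other arrays, and Marco, Timd4, Cd5l, Vsig4 and Clec4f stay at 23.1 or less.

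Replication and mitosis genes were below parental cells at passage 1 and closer to them at passage 3. Pclaf, the gene with the largest difference among those lower at passage 1 only, whose product binds the replication clamp PCNA, read 605 and 2236 at liver passages 1 and 3, against 2434 in parental cells. Rrm2, the ribonucleotide reductase subunit that supplies deoxynucleotides, read 992 and 2566, against 2495. Mcm5 and Mcm3 encode subunits of the replicative helicase. Mcm5 read 1125 and 2361 at liver passages 1 and 3, against 2687 in parental cells, and Mcm3 read 949 and 1921, against 1980. Aurkb, a mitotic kinase, read 224 and 482, against 557. All 20 replication and mitosis genes were below parental cells at passage 1, all 20 were higher at passage 3 than at passage 1, and the list medians were -0.71 and -0.07. Over all named genes, 50.3% were below parental cells at passage 1 and 51.9% were higher at passage 3 than at passage 1. At passage 3, 17 of the 20 (85%) were still below parental cells, against 48.9% of all named genes. At bone passages 3 and 6 the list medians were -0.40 and 0.08. Limma called 0 of the 20 genes for the liver sub-line (0 at an unadjusted p under 0.05). Nothing in the labels gives the density or growth state of the cells at harvest.

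Other genes lower at passage 1 only had differences larger than those of Rrm2, Mcm5, Mcm3 and Aurkb. Lsm3, part of the RNA-binding ring of the spliceosome and of mRNA decay, read 357 and 1263 at liver passages 1 and 3, against 1399 in parental cells, and Uqcrh, a subunit of respiratory complex III, read 351 and 1314, against 1122. The calcium-binding S100 genes S100a8 and S100a4 were low at passage 1 as well. S100a8 read 95.9 and 302 at liver passages 1 and 3, against 337 in parental cells, and S100a4 read 29.8 and 114, against 155. Of the 23 oxidative phosphorylation genes listed, which do not include Uqcrh, 0 were 2-fold apart in either passage.

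Among the genes higher at passage 3 only, Lgals7, the galectin of keratinocytes, read 33.1 and 156 at liver passages 1 and 3, against 19.8 in parental cells. Ivl, which encodes involucrin of the cornified envelope, read 28.7 and 152, against 19.3, and the epidermal lipoxygenase gene Alox12e read 34.1 and 126, against 25.4. The 3 genes were thus low at passage 1 and higher at passage 3. Of 14 keratin genes on the array, 0 were at least 2-fold higher at passage 3. The share over all named genes was 1.53%, so a count of 0 in so short a list says little about keratins. The other probe set of Ivl gave a log2 difference of 1.40 at passage 3, against 2.25 for the first. Lipoprotein lipase, which frees fatty acids from lipoproteins, was also of this class, with Lpl at 82.8 and 254 at liver passages 1 and 3, 5.3 and 13 at bone passages 3 and 6, and 56.0 in parental cells. The glutathione transferase gene Gstp3 read 14 and 104 at liver passages 1 and 3, against 11.9 in parental cells, and was higher still at bone passages 3 and 6, at 453 and 513. On the lower side, Txnip, an inhibitor of thioredoxin that rises with glucose, read 392 and 151 at liver passages 1 and 3, against 530 in parental cells, and P2ry2, a nucleotide receptor, read 47.2 and 4.2, against 51.4. Stc2, a secreted glycoprotein induced by cell stress, read 1582 and 517, against 1264, and Hhipl2 read 48.5 and 4.5, against 66.1. Over this class 55.9% of the higher and 54.8% of the lower genes did not reach an intensity of 100 on the liver or parental arrays. Some were brighter in the bone sub-line, such as Hhipl2 at 245 at bone passage 3.

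Cholesterol synthesis genes lay on opposite sides of parental cells in the 2 passages. Of 13 members, 10 (76.9%) were below parental cells at passage 1 and 12 (92.3%) above at passage 3, against 50.3% and 50.4% of all named genes. All 13 were higher at passage 3 than at passage 1, against 51.9% of all named genes. Idi1, an isomerase of the pathway, read 127 and 395 at liver passages 1 and 3, against 333 in parental cells. Also chosen after their values were seen, the sterol sensor partner gene Insig1 read 234 and 652 at liver passages 1 and 3, against 327 in parental cells, and the early enzyme gene Hmgcs1 read 637 and 1258, against 674. Bone passages 3 and 6 had list medians of 0.26 and 0.25, and the liver passages -0.34 and 0.44. Limma called 0 of the 13 (0 at an unadjusted p under 0.05).

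Arg1 lay outside these classes because its passage 1 level was between them. It encodes arginase, an enzyme of hepatocytes and of some macrophages, and was the only member of the hepatocyte list at least 2-fold from parental cells. It read 73.8 and 381 at liver passages 1 and 3, 640 and 578 at bone passages 3 and 6, and 35.9 in parental cells. Both sub-lines were thus higher in Arg1 than parental cells, and the other hepatocyte markers did not follow.

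**Figure D5:**
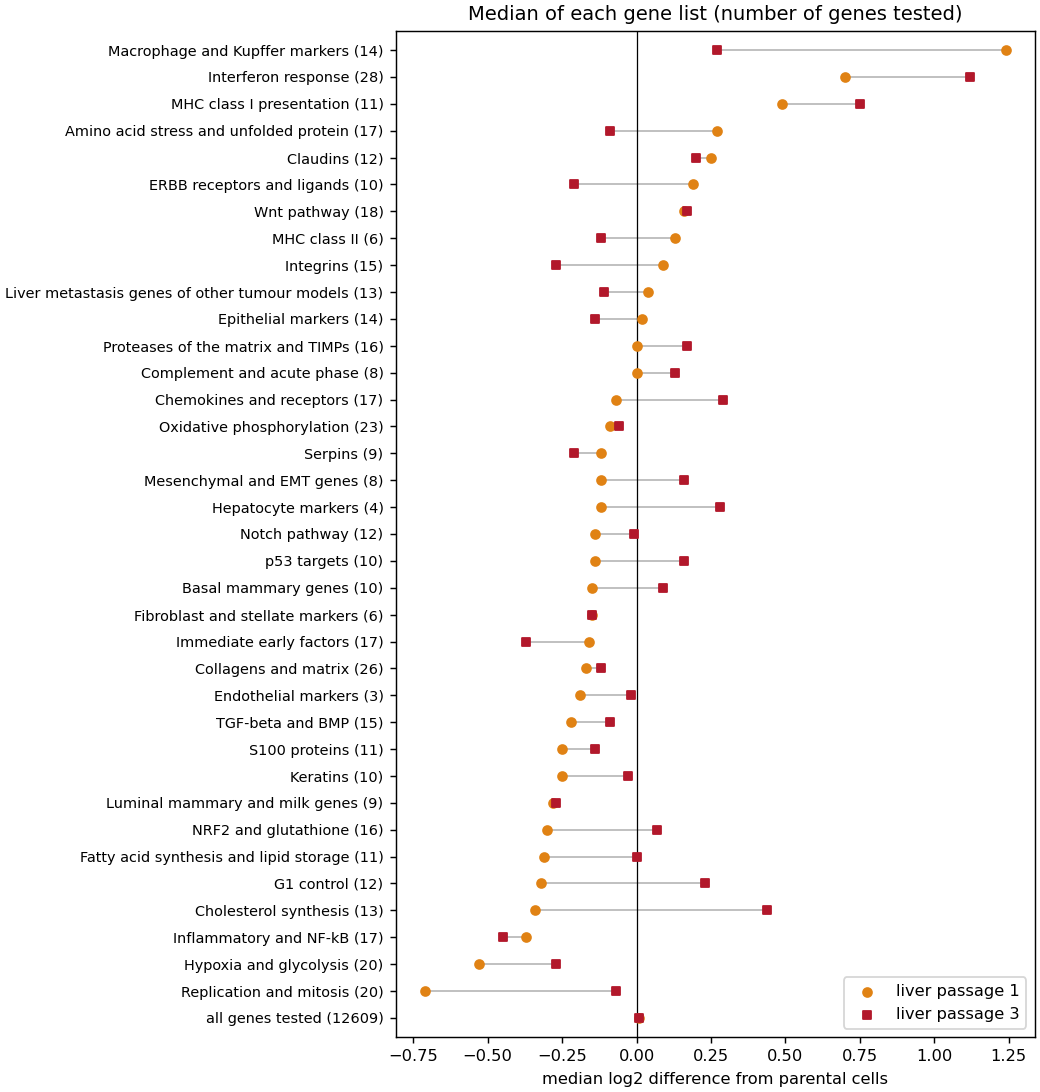
Median log2 difference from parental cells at liver passage 1 (orange circles) and passage 3 (red squares) for each gene list, with the number of its genes tested, and for all 12609 genes tested in the bottom row. Interferon and MHC class I lists lie right of 0 in both passages, and replication, hypoxia and inflammatory lists left of it, with replication at -0.71 and -0.07.

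Whether the differences belong to the liver sub-line or to both sub-lines was tested as liver against bone, in which the parental array cancels. Limma called 24 genes (0.19% of genes tested), of which 3 were among the genes described here, Prom1, Veph1 and Klk10. Prom1 read 453 and 485 at liver passages 1 and 3, against 32.4 and 4.9 at bone passages 3 and 6 (a log2 difference of 3.93 with an SE of 0.39, over 2 passages of each sub-line; limma adjusted p = 0.0437). Veph1 read 106 and 108, against 22.9 and 16.5 (1.79 ± 0.19; limma adjusted p = 0.0437), and Klk10 was lower in the liver sub-line (-2.17 ± 0.22; limma adjusted p = 0.0437). Without either liver passage, with no filter on dim probe sets or with a pseudocount of 1, limma called 0 of the genes described here. For the other genes named above, the 2 sub-lines were not shown to differ. Over the 108 genes higher in both liver passages the median log2 difference from parental cells was 1.40 and 1.51 at liver passages 1 and 3, and 1.33 and 0.80 at bone passages 3 and 6. Over the 119 lower genes it was -1.44 and -1.47 at the liver passages and -0.89 and -1.19 at the bone passages. For passage 1 only genes, the bone medians were between -0.36 and 0.11. All these medians share the 1 parental array, so they are set side by side and not compared by a test.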

How the data were processed

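Total RNA, 5 ug per array, was labelled with biotin and hybridised to GeneChip Mouse Genome 430 2.0 arrays, per the labels' protocols. The authors deposited 1 intensity per probe set and array, for 45101 probe sets. RMA is the method that the submitters' processing notes name, with no version in the sources used here. The deposited intensities are linear, not log2, and with 2% trimmed at each end every array averaged 150. The planned tests on log2 values were therefore run on log2(intensity + 16), computed here with no further normalization.

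Probe sets were named from the platform annotation, which gave 1 gene for 34945 probe sets, several for 932 and none for 9211. Probe sets stayed in if any of the 5 arrays read at least 25.1, the median of all values. Each gene was read from its kept probe set of highest mean log2 value, and 12609 of 18193 genes could be tested. Limma 3.58.1 in R 4.3.3 fitted 3 groups (liver, bone, parental) over all 5 arrays with Benjamini-Hochberg adjustment, called at adjusted p under 0.05. Passages served as replicates, and the single parental array was taken to have their spread (2 residual degrees of freedom, prior 4.2). Single passages have no replicate check and are given as values and as counts of genes at least 2-fold apart. The number of arrays limits the precision.

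The genes compared and the 39 lists were chosen with earlier results of these data known. Named were, per direction, the 15 genes at least 2-fold apart in both passages with the largest difference in their nearer passage, up to 12 limma calls, and the 8 largest of passage 1 only and of passage 3 only. Also named were up to 5 genes per list at least 2-fold from parental cells in either passage, the defining markers of other cell types and 10 further genes (Erbb2, Alb, Krt8, Krt18, Epcam, Cdh1, Vim, Csf1r, Adgre1, Ptprc), 140 genes in all. Genes with only a RIKEN or predicted name were counted and not named. Simulated data held 200 of 12609 genes changed, in 10 runs, with independent normal noise and the same change in both liver passages. On them the liver against parental test recovered 2.6% of changes of 2-fold, 73% at 4-fold, 94.4% at 8-fold and 99.4% at 16-fold. False calls averaged 6.8 per run. These shares need not hold for the real arrays, where Lgals3bp was 16.5-fold higher and not called (limma adjusted p = 0.123). Alternatives tried were the filter, pseudocount, normalization, probe set rule, prior, arrays in the fit and fold threshold.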

Additional observations from a re-analysis of the deposited data

Results flagged for a closer look

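For 3 of the genes named above, the difference from parental cells was not the same in the liver and bone sub-lines, by limma's test of liver against bone (adjusted p = 0.0437 for each). Prom1, the gene of CD133, was higher in the liver than in the bone sub-line by 3.93 on the log2 scale, with intensities of 453 and 485 at liver passages 1 and 3, against 32.4 and 4.9 at bone passages 3 and 6. Veph1 was higher by 1.79, at 106 and 108 at the liver passages, against 22.9 and 16.5 at the bone passages. Klk10, a serine protease gene, had a difference of -2.17, at 78.9 and 67.5 at the liver passages, against 453 and 326 at the bone passages. At passage 3, which both sub-lines share, liver and bone read 485 and 32.4 for Prom1, 108 and 22.9 for Veph1, and 67.5 and 453 for Klk10, with 1 array each.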

How the results depend on the processing

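No paired analysis was possible because the parental array has no passage or replicate number to share with the liver passages. Of the alternatives planned for the limma comparison of liver with parental cells, the count of 2 (2 higher) became 1 with no filter, with a pseudocount of 1 and in a test against 1.5-fold, 5 (3 higher) with a pseudocount of 64, 4 (3 higher) with median centring, 3 (2 higher) with quantile normalization, 7 (6 higher) with every probe set as a feature, 7 (6 higher) with a mean-variance trend, and 38 (20 higher, 18 lower) with only liver and parental arrays. Leaving out 1 array gave 0 to 38. The 38 came without either bone array, which is the same fit as with only liver and parental arrays, and the 0 (898 and 1231 at an unadjusted p under 0.05 in limma) without either liver passage. Sostdc1 lost its call with no filter (limma adjusted p = 0.225), a pseudocount of 1 (0.139) and the test against 1.5-fold (0.0592), and its adjusted p ranged from 0.00752 to 0.229; that of Ecrg4 ranged from 0.0001 to 0.0687. The 108 genes higher in both passages became 243 and 26 with pseudocounts of 1 and 64, 177 with every probe set, 28 at 3-fold, and 243 to 276 with 1 liver passage left out. The 119 lower genes became 213, 55 and 31 (pseudocounts of 1 and 64, 3-fold) and 215 to 328. The 197 genes of passage 1 only became 328 and 72 with these pseudocounts, 332 with every probe set, 20 at 3-fold, and 343 and 117 with the other passage under 2-fold or within 0.25 log2. The 90 genes of passage 3 only became 196, 27, 183, 8, 263 and 49 in the same order. Stricter or looser thresholds and more features change counts by construction, and for the other moves the cause was not tested. The 3 named genes that differed from the bone sub-line were 0 with no filter or a pseudocount of 1 and 5 with median centring, and leaving out 1 array gave 0 to 10, with 0 without either liver passage; these alternatives were chosen after the data were seen. Single genes turned sign for Esr1 (-0.23), Kit (-0.01), Leng9 (0.71) and Necab3 (-0.43) at another probe set, for Necab3 with a pseudocount of 1 (-0.69) and for Lyz1 with no filter (-0.04). Over the 140 named genes, 1400 of 1553 alternatives left the value on its side of the threshold and within the spread, and 470 of 576 did so for list medians. With 1 array per passage, effects of culture or array cannot be told apart from the passage, and dim genes are limited by the array's background.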

Other observations

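The oestrogen receptor gene read above parental cells at 1 probe set, and the tested milk genes read below them. Esr1, the oestrogen receptor gene, read 47.8 and 90.7 at liver passages 1 and 3, 106 and 97.3 at bone passages 3 and 6, and 6.0 in parental cells, but its other 2 probe sets gave differences from -0.40 to 1.32, so its direction rests on 1 probe set. The casein gene Csn1s1 read 13 and 11.4 at the liver passages, against 57.2 in parental cells, and Ltf, which encodes the iron-binding milk protein lactoferrin, read 2285 and 1856, against 4039. A further casein gene chosen after its values were seen, Csn3, read 3500 and 3350 at the liver passages, against 6731 in parental cells. In the bone sub-line Csn3 read 7863 and 7739 at passages 3 and 6. Single ligand genes stood above parental cells in both passages, with the epigen gene Epgn at 96.8 and 172 at liver passages 1 and 3, against 42.6 in parental cells, and Wnt10a at 78.2 and 149, against 30.2. The matrix genes Postn (periostin) and Thbs1 (thrombospondin) were higher too. Postn read 198 and 224 at the liver passages, against 82.0 in parental cells, and Thbs1 read 2692 and 4031, against 1375. Serpinf1, which encodes an inhibitor of vessel growth, read 494 and 376, against 1589 (limma adjusted p = 0.194). None of these genes was called by limma. At bone passages 3 and 6, Epgn read 70.7 and 159, Wnt10a 139 and 245, and Thbs1 1699 and 3173, above parental cells as well. Serpinf1 read 176 and 221 there, lower than at the liver passages. Postn read 131 and 56.7, so bone passage 6 was below parental cells.

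The Notch ligand genes parted at passage 1. Jag1 read 1453 at liver passage 1 and 752 at passage 3, against 677 in parental cells, while Jag2 read 7.9 and 60.7, against 56.0. Trib3, a pseudokinase gene of the amino acid stress response, was on opposite sides of parental cells, at 1923 and 403 at liver passages 1 and 3, against 1110. Egr2, an immediate early factor, read 278 and 66.8, against 469. Among genes of passage 1 only, chosen after their values were seen, stood 4 further host genes of small nucleolar RNAs beside Zfas1, namely Snhg5, Snhg6, Snhg16 and Snhg17, with log2 differences of 1.19, 1.06, 1.08 and 1.17 at passage 1 and of -0.47, -0.09, -0.02 and -0.14 at passage 3. The higher side of this class held 0.555% of all genes tested. The other host genes of this kind on the array were not counted, so nothing is said of the family.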
